A study of Mus musculus with 6 samples.

Results

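The 9 genes described here are those through which bone reads circulating hormones and vitamin D: Vdr, Cyp24a1, Rxra, Rxrb, Pth1r, Esr1, Thra, Thrb and Ghr. They were taken by name from the 23358 genes of the deposited count table, and all 9 were found there, each in a single entry. The samples were calvaria (skull roof bone) from mice aged 2 to 3 days, digested briefly with collagenase and trypsin before RNA isolation. The 6 RNA-seq libraries of total RNA comprised 3 labelled wild type (Ezh2_WT_Osx, called WT) and 3 labelled Ezh2 conditional knockout (Ezh2_cKO-Osx, called cKO). Ezh2 is the histone methyltransferase of the Polycomb repressive complex PRC2. Osx is an older name of Sp7, a factor of osteoblast precursors whose promoter is widely used to drive Cre recombinase. Both group labels carry Osx, but the labels do not name a Cre transgene, do not say whether the WT mice carried one, and do not give the deleted part of Ezh2. The label numbers of the libraries serve as their names here: WT 14, WT 27, WT 29, cKO 8, cKO 10 and cKO 37. Whether each came from a separate animal is not given, so p-values describe only how far these libraries scatter, part of which may be technical.

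Vitamin D acts through Vdr, a nuclear receptor that binds its hormone and then DNA as a pair with a retinoid X receptor such as Rxra or Rxrb. Cyp24a1, the enzyme that inactivates vitamin D, is among the strongest targets of that pair and closes a feedback loop. Pth1r, the receptor of parathyroid hormone and its related peptide, signals through G proteins and cyclic AMP in osteoblasts, whereas Ghr signals through the kinase Jak2 and Stat5. Esr1 is estrogen receptor alpha, and Thra and Thrb are the thyroid hormone receptors, with Thra the form known to predominate in bone.

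RefSeq start sites were found for 7 of the 9 genes, in 14 windows of 300 bases that run from 250 bases before to 50 bases after the start (GRCm38.p6, the assembly of mm10). Printed here are the windows of Vdr, which was the gene that fell, of its DNA-binding partner Rxra, and of Pth1r, the most abundant of the 9. Each is the window whose start site matched the deposited gene boundary exactly (0 bases apart), and each is written 5′ to 3′ on the gene's strand. Capitals mark GC boxes, searched as GGGCGG on both strands. The windows are chr15:97908247-97908546 on the minus strand, chr2:27676951-27677250 on the plus strand and chr9:110747096-110747395 on the minus strand.
Vdr: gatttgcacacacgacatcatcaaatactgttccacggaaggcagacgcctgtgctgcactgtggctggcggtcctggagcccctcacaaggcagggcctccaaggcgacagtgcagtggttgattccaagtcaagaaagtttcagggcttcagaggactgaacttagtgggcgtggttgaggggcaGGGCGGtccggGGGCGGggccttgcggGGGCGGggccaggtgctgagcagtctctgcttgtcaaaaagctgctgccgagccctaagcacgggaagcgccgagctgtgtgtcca
Rxra: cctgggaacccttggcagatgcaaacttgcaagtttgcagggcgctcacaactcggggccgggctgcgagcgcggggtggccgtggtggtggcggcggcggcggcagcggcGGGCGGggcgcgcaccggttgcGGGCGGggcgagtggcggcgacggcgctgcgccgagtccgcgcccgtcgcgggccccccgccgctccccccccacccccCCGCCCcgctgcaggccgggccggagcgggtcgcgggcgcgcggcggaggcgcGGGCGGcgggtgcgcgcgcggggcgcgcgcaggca
Pth1r: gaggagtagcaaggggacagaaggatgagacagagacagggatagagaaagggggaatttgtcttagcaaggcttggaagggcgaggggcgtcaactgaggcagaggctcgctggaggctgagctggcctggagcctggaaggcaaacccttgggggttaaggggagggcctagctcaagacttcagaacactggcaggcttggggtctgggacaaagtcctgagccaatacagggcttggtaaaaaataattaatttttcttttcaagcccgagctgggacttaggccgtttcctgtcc

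The Vdr window held 3 GC boxes, with their first bases 63, 52 and 36 bases before the start site, and the Rxra window 4, whereas the Pth1r window held 0. Such a box was present in 35.7% of all 32851 RefSeq start windows of the same length. GC content was 61.3% for Vdr, 83.0% for Rxra and 54.3% for Pth1r, against a median of 52.7% over all windows. CpG dinucleotides numbered 15, 55 and 5, against a median of 7. The Pth1r gene has 2 further RefSeq starts inside the deposited gene, with 1 and 4 GC boxes, and gene-level counts do not tell transcripts of different starts apart. The AP-1 motif (TGACTCA or TGAGTCA, in 5.2% of all windows) and the full cyclic AMP element (TGACGTCA, in 1.79%) had 0 matches in the 14 windows. The nuclear receptor core AGGTCA, present in 16.3% of all windows, had 1 match in the first Thrb window and 2 matches in the second Rxra window. These are matches of letters in short windows and do not show binding.

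Total gene counts were between 60449016 and 95439578 per library, and all counts were even, as when both mates of a read pair are counted. Of all genes, 16089 had enough counts to be tested, and 1997 of them (12.4%) passed an adjusted p of 0.05 in edgeR's quasi-likelihood test, 959 higher (5.96%) and 1038 lower (6.45%) in cKO. The share of higher genes among those called was 48.0%, but 60.9% with upper-quartile scaling and 33.0% with a correction for the GC content and length of each gene (below, the composition correction). In 34.6% of the tested genes the 3 cKO libraries did not overlap the 3 WT libraries in either direction. Ezh2 itself did not pass, at 20.9 ± 0.68 CPM in WT and 19.9 ± 0.69 CPM in cKO (CPM, counts scaled to the library size with TMM factors, mean ± SD, n = 3 per group). With the deleted part unknown, that value does not check the labels, and cKO means the libraries so labelled.

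Of the 9 genes, Vdr fell in cKO, 7 did not pass and Cyp24a1 was too scarce to test. The 1 call among 8 tested genes (12.5%) is close to the 12.4% of all tested genes, and 0 of the 8 were called higher by edgeR, DESeq2 or limma voom. Without overlap between the groups were Vdr, lower in cKO, and Esr1 and Ghr, higher in cKO, 3 of the 8 beside the 34.6% of all tested genes. At an unadjusted p under 0.05 there were 3 of the 8, namely Vdr, lower, and Ghr and Thrb, higher in cKO, beside 29.1% of all tested genes. Calls given with no tool are those of edgeR.

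**Figure D1:**
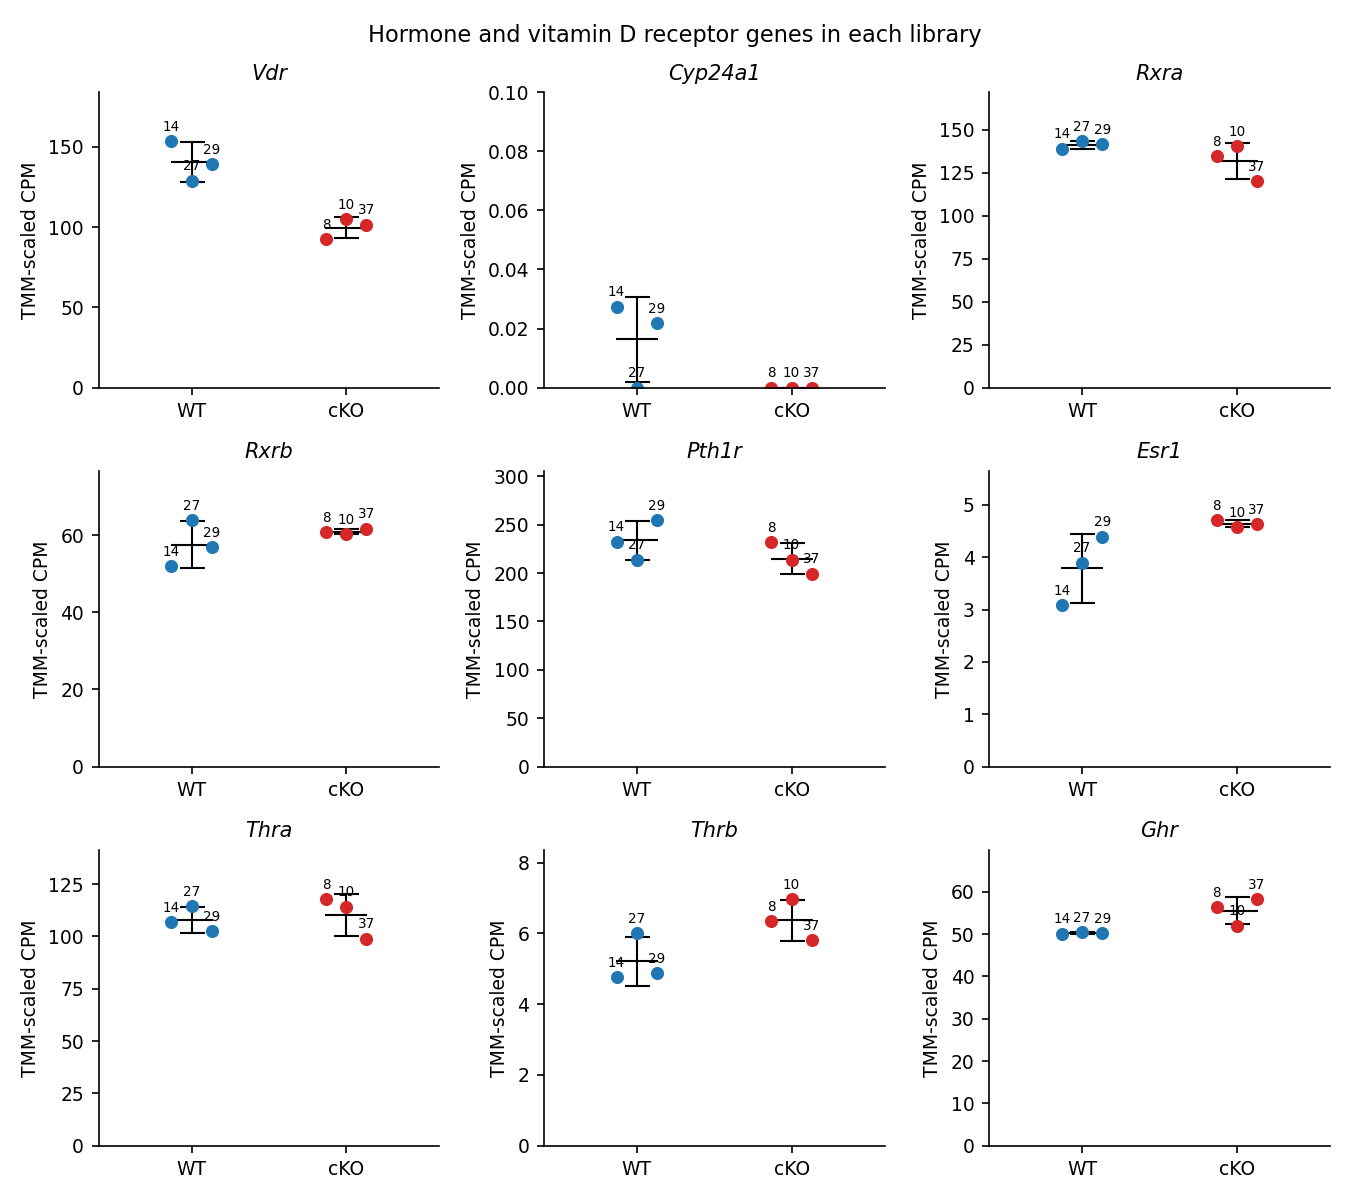
TMM-scaled CPM (vertical axes, from 0) of the 9 genes in each library (blue WT, red cKO, numbered as in the labels), with the group mean and SD as mark and bar (n = 3 per group). All 3 cKO points of Vdr, from 92.5 to 105, lie under its 3 WT points, from 129 to 153, while Cyp24a1 lies at or near 0 in all 6 libraries.

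Vdr (chromosome 15, 97854427 to 97908296, mm10) stood at 153 CPM in WT 14, 129 in WT 27 and 139 in WT 29, and at 92.5 CPM in cKO 8, 105 in cKO 10 and 101 in cKO 37. Every cKO library was thus below every WT library, and cKO 8 was the lowest. The means were 141 ± 12.3 and 99.6 ± 6.36 CPM, and Vdr fell by 29.1%, a log2 fold change (cKO over WT, with its standard error) of -0.50 ± 0.08. Its 95% confidence interval on the linear scale was 0.632 to 0.796 times the WT level (edgeR quasi-likelihood, adjusted p = 0.00394). By p it ranked 152 of 16089 genes, and by log2 fold change, counted from the lowest, 553. These values rest on raw counts of 5544 to 12802 per library. The call held without each library in turn (adjusted p = 0.00494 to 0.0264, log2 -0.56 to -0.43). It was lost when the test asked for a change larger than 1.2-fold (adjusted p = 0.0859). In bulk RNA from digested calvaria, fewer cells that express a gene and less RNA per cell cannot be told apart.

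Rxra (chromosome 2, 27677201 to 27763319), the most abundant of the partners of Vdr measured per gene length, had 139, 143 and 142 CPM in the 3 WT libraries in the order above and 135, 140 and 120 CPM in the cKO libraries. The groups overlapped, with cKO 10 inside the WT range and cKO 37 the lowest. The log2 fold change was -0.10 ± 0.07, an interval of 0.841 to 1.03 times the WT level (adjusted p = 0.357), and it was -0.04 without cKO 37, -0.16 without cKO 10 and -0.05 with the composition correction. Rxrb (chromosome 17, 34031812 to 34038403), its paralog, was at 51.9, 63.8 and 56.9 CPM in WT and 60.8, 60.3 and 61.6 CPM in cKO. The cKO values lay within the WT range, and the log2 fold change of 0.08 ± 0.07 did not pass (interval 0.944 to 1.19 times, adjusted p = 0.512). It was 0.01 without WT 14, 0.16 without WT 27 and 0.18 with the composition correction, and did not pass in any of these. The third retinoid X receptor gene, Rxrg, was scarce and did not pass either (log2 0.68 ± 0.25, adjusted p = 0.103).

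Cyp24a1 (chromosome 2, 170482965 to 170497138) had 2 counts, or 1 read pair, in WT 14 and in WT 29, and 0 counts in WT 27 and in all 3 cKO libraries. In the libraries at 0, a limit of 3 read pairs (6 counts) allows up to 0.0859 CPM in WT 27 and 0.078 to 0.1 CPM in cKO, which covers counting error only. Both groups were at or under that limit, so no fold change is given, and a difference was not detectable at this depth. The last 711 bases of the Cyp24a1 interval, by coordinate, overlap the deposited span of Pfdn4.

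Pth1r (chromosome 9, 110722085 to 110747145) was measured at 233 CPM in WT 14, 214 in WT 27 and 255 in WT 29, and at 232 CPM in cKO 8, 214 in cKO 10 and 199 in cKO 37. The groups overlapped, and cKO 37 was the only library below the WT range. The log2 fold change of -0.12 ± 0.08 did not pass (interval 0.814 to 1.04 times, adjusted p = 0.358). It was -0.05 without WT 29, -0.07 without cKO 37, -0.18 without WT 27 and -0.03 with the composition correction. A fall as large as the point estimate for Vdr lies outside that interval.

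Ghr (chromosome 15, 3317760 to 3583230) was nearly equal in the 3 WT libraries, at 50.1, 50.5 and 50.2 CPM, and was 56.4, 52.0 and 58.2 CPM in cKO. All cKO libraries lay above all WT libraries, though cKO 10 by a small margin. The difference of 0.14 ± 0.06 on the log2 scale did not pass (interval 1.01 to 1.21 times, unadjusted p = 0.0375, adjusted p = 0.144, edgeR). With the composition correction it was 0.02 (adjusted p = 0.844).

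Esr1 (chromosome 10, 4612046 to 5003761) was scarce, with 3.09, 3.89 and 4.39 CPM in WT and 4.71, 4.58 and 4.63 CPM in cKO. The cKO libraries were close together and just above the highest WT library. Its log2 fold change of 0.29 ± 0.15 had a wide interval, 0.975 to 1.53 times the WT level, and did not pass (adjusted p = 0.226). Without WT 14, the lowest library, it was 0.16. Raw counts were 226 to 404 per library, so the precision is lower than for Vdr.

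Thra (chromosome 11, 98741873 to 98765111) was at 107, 114 and 102 CPM in WT and 118, 114 and 98.9 CPM in cKO. The lowest and the highest of the 6 values were both from cKO, and the log2 fold change was 0.03 ± 0.07 (interval 0.912 to 1.15 times, adjusted p = 0.818). Its sign turned when WT 29 (-0.00445), cKO 8 (-0.0183) or cKO 10 (-0.000693) was left out. It was 0.07 without WT 27, 0.10 without cKO 37, 0.06 with upper-quartile scaling and 0.11 with the composition correction. The deposited span of the microRNA entry Mir684-1 covers the whole of Thra, and how reads shared by such entries were counted is not given, so its level is uncertain. Thrb (chromosome 14, 17660960 to 18038088) was at 4.76, 6.01 and 4.87 CPM in WT and 6.34, 6.96 and 5.80 CPM in cKO. WT 27 lay above cKO 37, so the groups overlapped, and the log2 fold change of 0.29 ± 0.13 did not pass (interval 1 to 1.49 times, unadjusted p = 0.0496, adjusted p = 0.171, edgeR). With the composition correction it was 0.19.

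**Figure D2:**
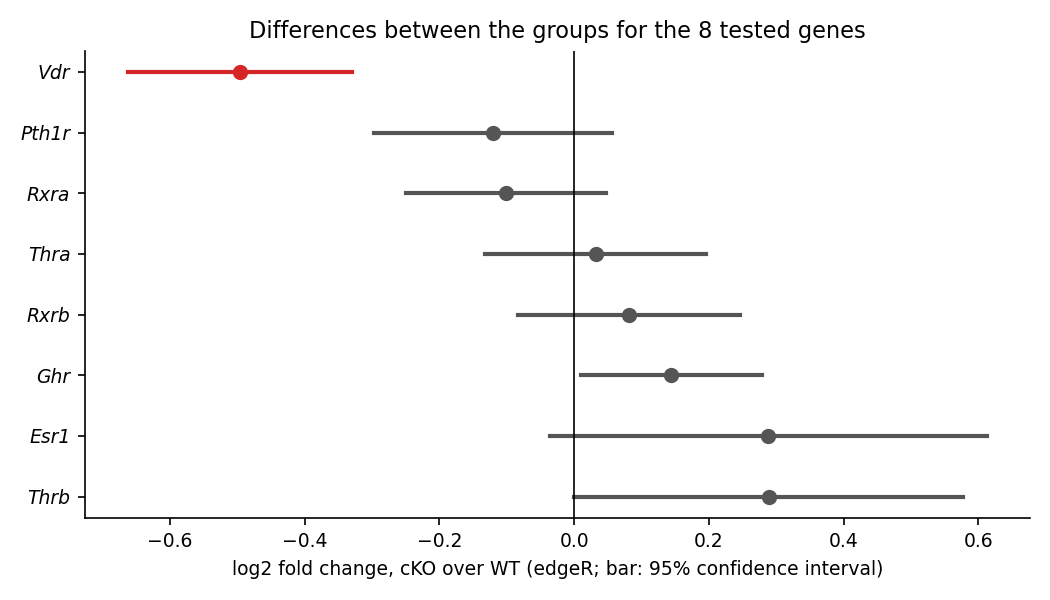
Log2 fold change of cKO over WT (horizontal axis) for the 8 tested genes, with the 95% confidence interval of the edgeR model (n = 3 per group) and in red the gene that passed. Vdr lies at -0.50, and the intervals of Pth1r, Rxra, Thra, Rxrb and Esr1 include 0.

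To compare levels between genes, the scaled counts were divided by the deposited gene length (CPM per kilobase). In WT the order was Pth1r at 85.9 ± 7.48, Thra at 48.0 ± 2.71, Vdr at 32.3 ± 2.82, Rxra at 26.8 ± 0.422, Rxrb at 20.8 ± 2.17 and Ghr at 11.4 ± 0.0471 CPM per kilobase. Esr1 at 0.878 ± 0.152 and Thrb at 0.795 ± 0.106 CPM per kilobase followed, and Cyp24a1 was last. In WT each gene lay apart from the next in this order in all 3 libraries, except Esr1 and Thrb, whose values overlapped. In cKO, Vdr was at 22.9 ± 1.46 CPM per kilobase and ranked after Rxra at 25.0 ± 2.01. The values of Vdr, Rxra and Rxrb (22.0 ± 0.251) lay close together there, and Rxra overlapped Vdr and Vdr overlapped Rxrb. The levels of Pth1r and Thra remained in first and second place, that of Thra being uncertain because another entry covers the gene.

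**Figure D3:**
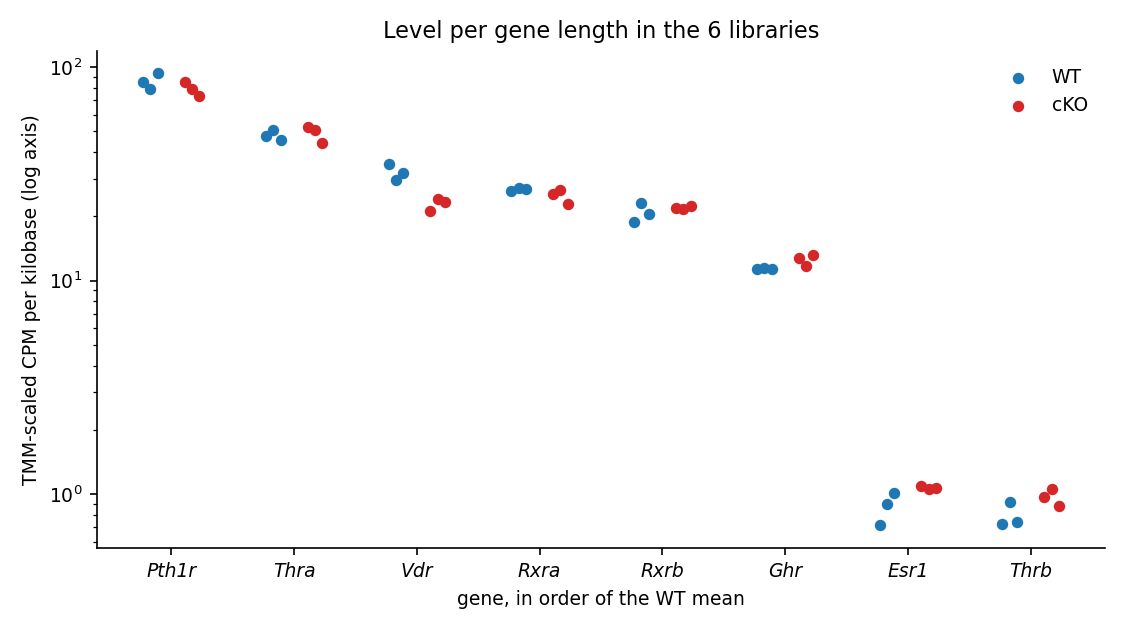
TMM-scaled CPM per kilobase of gene length (vertical log axis) in the 6 libraries (points: blue WT, red cKO) for 8 of the 9 genes in order of the WT mean. Cyp24a1, at 0 in 4 libraries, is not drawn. In WT, Vdr stands above Rxra, and in cKO their points overlap.

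The ratio of Vdr to Rxra per gene length was 1.34 in WT 14, 1.09 in WT 27 and 1.19 in WT 29, against 0.83 in cKO 8, 0.903 in cKO 10 and 1.02 in cKO 37. All cKO ratios were below all WT ratios, a log2 difference of -0.39. The exact two-sided permutation p was 0.1, the smallest that 3 against 3 libraries can give, and 0.15 after Benjamini-Hochberg adjustment over the 6 ratios computed. The ratio of Vdr to Pth1r likewise did not overlap (0.342 to 0.412 in WT, 0.249 to 0.318 in cKO, exact permutation p = 0.1). Neither did that of Vdr to Runx2, the commitment factor of osteoblasts (0.782 to 0.905 in WT, 0.547 to 0.688 in cKO, exact permutation p = 0.1). The ratio of Vdr to Sp7 overlapped, at 0.288 to 0.372 in WT and 0.263 to 0.329 in cKO (log2 difference -0.13, exact permutation p = 0.4). The ratios of Vdr reuse its own difference, and Sp7 was also called lower in cKO, so they are no separate test. The ratio of Thra to Thrb was 55.5 to 65.4 in WT and 47.8 to 54.2 in cKO, and that of Rxra to Rxrb 1.18 to 1.41 and 1.02 to 1.23 (exact permutation p = 0.1 and 0.2). The uncertainty in the level of Thra carries over to its ratio.

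Markers of cell types and of handling are given beside Vdr for the same libraries. Sp7 fell (log2 -0.37 ± 0.09, adjusted p = 0.0211), a call lost on leaving out any of WT 29, cKO 8, cKO 10 or cKO 37 (0.0518 to 0.0789). Of the 13 osteoblast markers, Sp7 fell and 12 did not pass in edgeR, whereas DESeq2 called 3. These were Sp7, Ibsp, which was higher in cKO, and Smpd3, which was lower (edgeR log2 0.34 ± 0.12 and -0.50 ± 0.15). The summed level of the 13 was 131879 to 179421 CPM in WT and 98111 to 134126 CPM in cKO, which overlapped. Most of that sum was Col1a1 and Col1a2, which averaged 81440 and 61619 CPM in WT. All 12 early response genes of digestion or stress, such as Fos, Egr1 and Atf3, had negative log2 fold changes, with a median of -0.77. The sums of the 12 were 4120 to 4659 CPM in WT and 2182 to 2867 CPM in cKO, with no overlap, and 11 of the genes passed. Of these, Fosb and Hspa1a were lost on leaving out any of WT 14, WT 27, WT 29 or cKO 10, and Hspa1a also without cKO 37 (adjusted p = 0.0513 to 0.111). Fosb was also lost with no low-count filter (0.0653) and with limma voom (0.0512). Of 9 osteoclast and macrophage markers, Acp5 and Csf1r fell and 7 did not pass in edgeR, whereas DESeq2 called 5. All 9 had negative log2 fold changes, with a median of -0.48, beside -0.50 for Vdr. Their sums were 3200 to 4524 CPM in WT and 2577 to 3214 CPM in cKO, overlapping slightly, and both calls were lost without cKO 8 or cKO 37 (adjusted p = 0.0544 to 0.085). The part of these genes in the difference of Vdr was not tested.

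Cartilage markers varied most, from 792 CPM in cKO 37 and 2233 CPM in WT 14 to 8305 CPM in WT 27, and 0 of the 7 passed in edgeR, DESeq2 or limma voom, or at an unadjusted p under 0.05 in edgeR. Among osteocyte markers Mepe rose and 5 did not pass, and among 8 markers of suture mesenchyme and fibroblasts Pdgfra rose. All 8 of the latter had positive log2 fold changes, with a median of 0.21. Mepe was lost on leaving out any of WT 27, WT 29, cKO 10 or cKO 37 (adjusted p = 0.0579 to 0.1), and Pdgfra without WT 14, WT 27, WT 29 or cKO 8 (0.0881 to 0.14) and with the composition correction (0.0502). No endothelial or mural marker passed in edgeR or limma voom, though 1 endothelial and 3 mural markers had an unadjusted p under 0.05 and 3 mural markers passed in DESeq2. The 5 mural markers did not move together, with 3 positive and 2 negative log2 fold changes. Higher in cKO without overlap were Rgs5 (0.24 ± 0.08) and Abcc9 (0.20 ± 0.07). Lower without overlap were Acta2 (-0.65 ± 0.19) and Cspg4 (-0.37 ± 0.17). Of all tested genes, 34.6% were likewise without overlap, higher or lower. The mural calls of DESeq2 were Rgs5, Acta2 and Cspg4. Acta2 and Cspg4 were the most abundant of the 5, and the mural sums were lower in cKO without overlap, 700 to 824 CPM in WT and 537 to 684 CPM in cKO. The endothelial sums overlapped, 462 to 512 CPM in WT and 473 to 583 CPM in cKO. All 7 neutrophil markers averaged under 1 CPM, as did 5 of 6 B lineage, 5 of 6 skeletal muscle, 6 of 8 erythroid, 3 of 4 adipocyte and 3 of 4 epidermal markers, and 0 markers of these lists passed in edgeR. At an unadjusted p under 0.05 there were 2 erythroid, 1 neutrophil and 1 adipocyte markers, and DESeq2 called 1 erythroid marker. Of 6 neural and glial markers, the tubulin gene Tubb3 fell, a call lost without WT 29 (adjusted p = 0.0582). The part of these cell types in the difference of Vdr was not tested either.

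**Figure D4:**
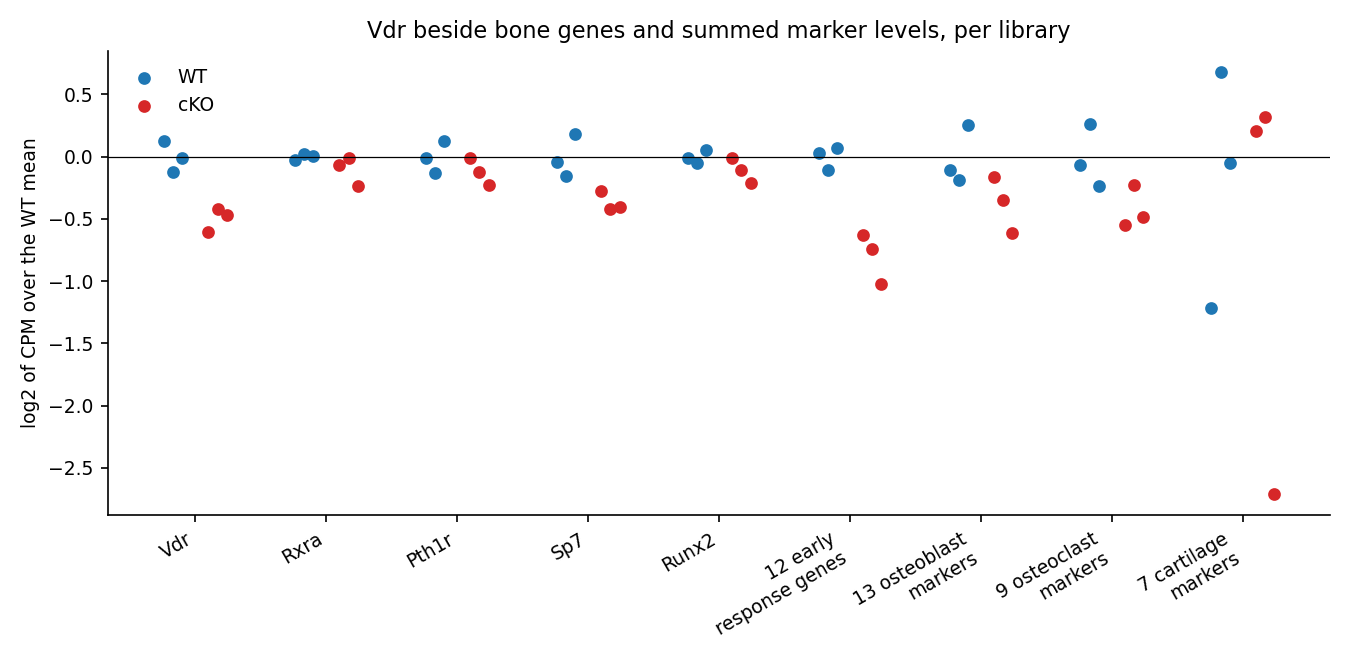
Log2 of each library's CPM over the WT mean (vertical axis) for Vdr, Rxra, Pth1r, Sp7, Runx2 and the summed markers of 4 lists (points: blue WT, red cKO). The cKO points of Vdr lie between -0.60 and -0.42 and those of the early response sum between -1.02 and -0.63, apart from WT in both, while the cartilage sum spans both groups.

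Outside the 9 genes, 10 lists of hormone pathway genes held 175 further genes, 158 of them tested, of which 6 rose and 16 fell in edgeR (13.9%, beside 12.4% of all tested genes), and 8 rose and 24 fell in DESeq2. Their median log2 fold change was -0.01, against 0.01 for all tested genes. By list, edgeR called 30% of estrogen response and of growth hormone genes and 20% of vitamin D responsive genes. Of vitamin D enzymes and carriers it called 16.7%, and of parathyroid hormone genes 15.2%. Under 12.4% were retinoid X receptor partners (9.09%), other peptide hormone receptors (5.56%) and cofactors (4.55%). The share was 0% for other steroid receptors and thyroid hormone genes. When a change beyond 1.2-fold was required, 3 of the 22 called genes passed, Nr4a1, Socs1 and Socs3, which are lower in cKO. Rara, a retinoic acid receptor that also pairs with retinoid X receptors, was at 70.1 ± 1.18 CPM in WT and 60.0 ± 2.25 CPM in cKO (log2 -0.23 ± 0.06, adjusted p = 0.0295). The call needed all libraries except cKO 37 (adjusted p without any of these = 0.0568 to 0.115), and it was lost under the composition correction (0.169). It was the 1 gene that edgeR called among 11 other retinoid X receptor partners, and DESeq2 also called Nr4a2 (edgeR log2 -0.63 ± 0.18, adjusted p = 0.0757). Among 7 other steroid and estrogen-related receptors 0 passed in edgeR, DESeq2 or limma voom and 0 had an unadjusted p under 0.05. The smallest p was that of the mineralocorticoid receptor gene Nr3c2 (log2 0.55 ± 0.27, adjusted p = 0.202).

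Of 6 tested vitamin D enzymes and carriers, edgeR called 1, Cubn, and DESeq2 called 3, Cubn and also Dhcr7 and Pdia3, whose edgeR log2 fold changes were -0.45 ± 0.16 and -0.22 ± 0.09 (adjusted p = 0.107 and 0.123). Cubn, an endocytic receptor that takes up the vitamin D carrier, rose from 11.0 ± 1.84 to 14.8 ± 0.678 CPM (log2 0.42 ± 0.11, adjusted p = 0.0354). That call needed every library but WT 14 (adjusted p without any of the others = 0.0552 to 0.124), and it was lost under the composition correction (0.0589). Cyp27b1, which makes the active hormone, was at 1.30 ± 0.323 CPM in WT and 1.86 ± 0.306 CPM in cKO and did not pass (adjusted p = 0.168). Cyp27b1 is named here after its value was seen.

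Of 20 tested genes known to respond to vitamin D, 1 rose and 3 fell (20% called, beside 12.4% of all tested genes). All the lists were chosen with earlier results of these data known, so such shares, here and for the other lists, only describe. Tnfrsf11b, which encodes osteoprotegerin, the decoy receptor that restrains osteoclast formation, had 17.2, 12.9 and 13.1 CPM in WT and 22.3, 24.2 and 28.5 CPM in cKO. All cKO libraries were above all WT libraries, and the rise was 1.74-fold (log2 0.80 ± 0.13, adjusted p = 0.00832). It was lost only when more than 1.2-fold was required (adjusted p = 0.0665). The Wnt co-receptor gene Lrp5, the Notch target Hes1 and the cell cycle inhibitor gene Cdkn1a fell, with log2 fold changes of -0.26 ± 0.07, -0.37 ± 0.09 and -0.21 ± 0.06 in that order (edgeR adjusted p = 0.0311, 0.0211 and 0.0435). Lrp5 was lost on leaving out any of WT 14, WT 27, WT 29 or cKO 10 (edgeR, 0.0514 to 0.119), and Hes1 without WT 27, WT 29, cKO 8 or cKO 10 (0.0535 to 0.0951). For Cdkn1a each library except cKO 37 was needed (0.0737 to 0.172 without any of these), and the call was lost with upper-quartile scaling (0.0652). Tnfsf11, the gene of the osteoclast-forming cytokine RANKL, which was named after its value was seen, had 38.8 CPM in cKO 37 and 10.7 to 17.7 CPM in the other 5 libraries (log2 0.90 ± 0.46, adjusted p = 0.294).

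Of 33 tested genes of parathyroid hormone signalling and response, edgeR called 5 (15.2%, beside 12.4% of all tested genes), all lower in cKO. The other 28 did not pass, and DESeq2 called 6. Nr4a1, an orphan nuclear receptor induced early by the hormone, fell from 302 ± 36.1 to 168 ± 16.2 CPM (log2 -0.85 ± 0.10, adjusted p = 0.00154) and passed under all 16 alternatives. These include a looser adjusted p threshold of 0.1, which could not remove a call. Sik1, a kinase induced by cyclic AMP, and the adenylyl cyclase gene Adcy3 fell as well, with log2 fold changes of -0.66 ± 0.11 and -0.42 ± 0.08 (edgeR adjusted p = 0.0076 and 0.00863). Both were lost only when more than 1.2-fold was required (adjusted p = 0.075 and 0.252). Nr4a1 and Sik1 are also known as early response genes, the class of which 11 of 12 listed members fell. Prkaca, a catalytic subunit of protein kinase A, and the G protein gene Gna11 fell by 0.26 ± 0.07 and 0.21 ± 0.06 on the log2 scale (edgeR adjusted p = 0.0268 and 0.0396). Prkaca was lost on leaving out any of WT 14, WT 27, WT 29 or cKO 8 (0.0517 to 0.085). Gna11, chosen for mention with its value in view, was lost without each of the 6 libraries (0.056 to 0.15), under upper-quartile scaling (0.0623) and under the composition correction (0.0846). Pthlh, the local ligand of Pth1r, was at 4.29 ± 0.649 CPM in WT and 3.70 ± 1.55 CPM in cKO (adjusted p = 0.668), and it too was named after its value was seen.

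Of 18 other peptide hormone receptor and receptor partner genes, Calcrl, which forms receptors for calcitonin gene-related peptide and adrenomedullin, rose by 0.40 ± 0.11 on the log2 scale (adjusted p = 0.0397). The call needed all libraries except WT 29 (adjusted p without any of the others = 0.0639 to 0.109), and it was lost under the composition correction (0.144). Among 20 genes of growth hormone signalling, 2 rose and 4, among them Socs3 and Socs1, fell in edgeR. The share called was 30%, beside 12.4% of all tested genes, and DESeq2 called 8. Socs3 and Socs1, feedback inhibitors of cytokine receptors, had log2 fold changes of -0.89 ± 0.09 and -0.62 ± 0.09 (adjusted p = 0.000831 and 0.00267). Both passed under all 16 alternatives, which include the looser threshold that could not remove a call. Socs2, the feedback inhibitor best known for limiting Ghr, rose from 31.8 ± 1.5 to 39.8 ± 4.23 CPM (log2 0.32 ± 0.08, adjusted p = 0.0255), and the insulin receptor substrate gene Irs1 rose by 0.30 ± 0.06 (log2, adjusted p = 0.0128). Leaving out any library except cKO 10 removed the call of Socs2 (0.0527 to 0.0918), and leaving out cKO 8 removed that of Irs1 (0.0655). Jak2 and Igf1, also named after their values were seen, did not pass in edgeR (adjusted p = 0.0588 and 0.519), though Jak2 passed in DESeq2.

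Of 10 estrogen response genes, Wisp2 rose by 0.37 ± 0.10 on the log2 scale, and the secretory pathway factor Xbp1 and the chemokine gene Cxcl12 fell, with log2 fold changes of -0.49 ± 0.07 and -0.33 ± 0.09 (in the order named, edgeR adjusted p = 0.0318, 0.00225 and 0.0425). The edgeR calls were 30% of these genes, beside 12.4% of all tested genes, and DESeq2 called 4 of the 10. Xbp1 was lost only when more than 1.2-fold was required (adjusted p = 0.0646). Wisp2 was lost on leaving out any of WT 27, WT 29, cKO 10 or cKO 37 (0.088 to 0.116), and Cxcl12 without any library but WT 14 (0.0589 to 0.128) and with upper-quartile scaling (0.0617). None of 11 genes of thyroid hormone conversion, transport and response passed in edgeR, DESeq2 or limma voom, and 2 had an unadjusted p under 0.05. Among 22 nuclear receptor cofactors, the methyltransferase gene Carm1 fell by 0.26 ± 0.07 (log2, adjusted p = 0.0316), the 1 call of edgeR, whereas DESeq2 called 4. All libraries except cKO 37 were needed for the call (adjusted p without any of these = 0.0517 to 0.102), and it was lost under the composition correction (0.0514).

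**Figure D5:**
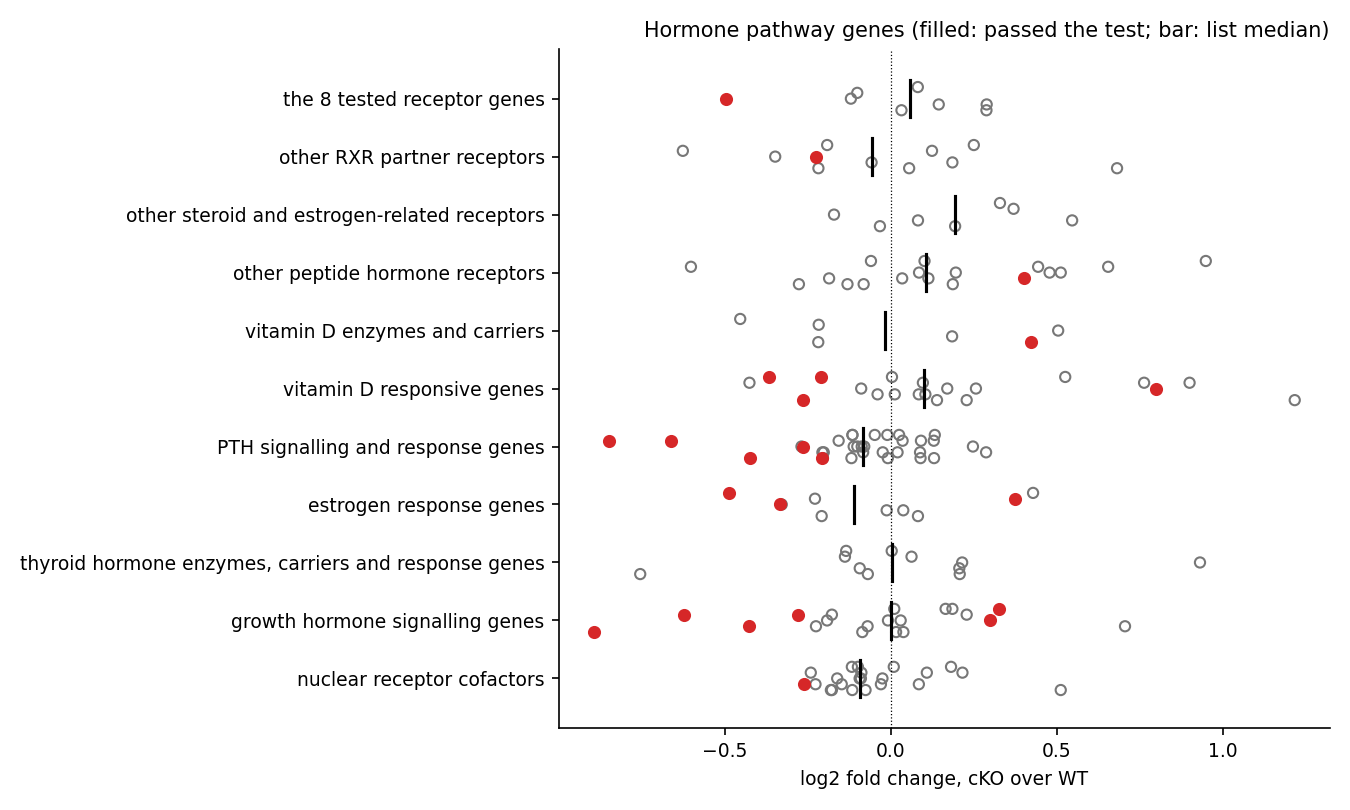
Log2 fold change of cKO over WT (horizontal axis) for the tested genes of the 10 pathway lists and the 8 tested receptor genes (rows; each point a gene, spread vertically for legibility), with filled points for genes that passed and a bar at each list's median. Vdr is the filled point at -0.50 in the top row. The filled points of the parathyroid hormone list (15.2% of its tested genes, beside 12.4% of all tested genes) lie below 0.

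The genes whose level followed that of Vdr most closely over the 6 libraries were sought among 12457 genes whose log2 CPM averaged 1 or more. Their Pearson r with Vdr was 0.997 for Zfp828, 0.995 for Zfp295, 0.994 for Ap2b1, 0.993 for Ipo8 and 0.992 for Zfp236. Since Vdr differs between the groups, r over the 6 libraries follows that difference as well, and 266 genes had an r over 0.95, of which 188 passed the test between the groups. Zfp828 did not pass (log2 -0.11 ± 0.06) and ranged only from 23.6 to 26.3 CPM over the libraries. Ap2b1, an adaptor subunit of endocytic coats, was at 137 to 148 CPM in WT and 117 to 123 CPM in cKO.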

How the data were processed

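Calvarial RNA from 6 libraries (3 WT, 3 cKO) was analysed. The submitters' processing notes name bcl2fastq, TopHat2 2.0.6, HTSeq and the build mm10, without roles. Annotation and strand handling are not given there. The count values deposited by the authors were tested as deposited. The RPKM values deposited by the authors served only to compute the library totals they imply. Counts were analysed with edgeR 4.0.16 in R 4.3.3 (filterByExpr with a minimum count of 10, TMM scaling, robust quasi-likelihood F test, Benjamini-Hochberg adjustment over 16089 genes, threshold 0.05). The steps were tested on simulated data. Alternatives used DESeq2 1.42.0, limma 3.58.1 and the settings of the closing section. The 9 genes and the 10 pathway and 15 marker lists were chosen with earlier results of these data known. The rule for naming took the 9 genes, up to 4 called genes per pathway list (otherwise the smallest p), Ezh2 and the 5 genes most like Vdr, and 1 of these is not reported here. Rxrg, Runx2, single marker genes and other genes outside the rule were named after their values were seen. The names of 4 listed genes were matched through RefSeq synonyms. Promoter sequences are RefSeq's.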

Additional observations from a re-analysis of the deposited data

How the results depend on the processing

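Under 16 alternatives, Vdr was lower in cKO in each and passed in 15, with log2 fold changes from -0.56 to -0.43. The 15 include the looser adjusted p threshold of 0.1, which could not remove a call. Of the other 7 tested genes, 0 passed in any alternative. Thra changed sign without WT 29, cKO 8 or cKO 10 (range without 1 library -0.0183 to 0.101), and the cause was not tested. The test against a 1.2-fold change left 112 genes called, 0 of the 9 genes lower, and 0 higher and 3 lower among the other pathway genes, since it asks for more. An adjusted p threshold of 0.1, which is looser, gave 3277 genes and 11 pathway genes higher. Leaving out 1 library, which leaves fewer samples, gave 586 to 1985 genes, 2 to 5 pathway genes higher and 6 to 21 lower. The total moved by over 1.5 times without cKO 8 (586), WT 29 (783), WT 14 (1127) or WT 27 (1169). DESeq2 called 2606 genes and 24 pathway genes lower. The composition correction for GC content and length, added after seeing the data (GC content known for 98.6% of tested genes), called 2166. No paired analysis was possible because the groups share no label numbers. Depth limits Cyp24a1, Esr1 and Thrb most.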
